A study of Mus musculus with 42 samples.

Results

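Liver RNA of lean and obese wildtype (WT) and ChemR23 knockout (KO) mice, with and without resolvin E1 (RvE1), was examined for 10 genes of the integrated stress response: Fgf21, Gdf15, Atf4, Atf5, Ddit3, Trib3, Sesn2, Chac1, Asns and Bbc3. The genes were taken by name from the 6 deposited tables, in which 19732 gene names occur, and all 10 are among the 12742 names listed in every table. The set follows a pathway but was put together with results of these data known, and Fgf21 and Bbc3 are taken to have been selected on their normalized counts in obese mice with and without RvE1. For that reason no test result of these genes is given for the 2 RvE1 comparisons, while the diet and genotype comparisons, which share the vehicle-treated obese mice with them, were tested. Fgf21 was higher with RvE1 in WT mice and Bbc3 in KO mice. Low counts in the vehicle-treated obese mice would thus favor both the selection and a lower level in the diet comparisons. Low Fgf21 in WT obese and low Bbc3 in KO obese mice would also favor differences between the obese genotypes. The diet, diet by genotype and obese genotype p-values of Fgf21 and Bbc3 do not allow for this selection.

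The integrated stress response starts with kinases that sense unfolded proteins, a shortage of amino acids or of heme, or viral RNA, and that phosphorylate the translation initiation factor eIF2. General protein synthesis is then held back, whereas the mRNAs of the transcription factors ATF4, ATF5 and CHOP (encoded by Ddit3) are translated more. ATF4, alone or with partners, binds the genes of amino acid supply and of feedback regulators, and it also binds Fgf21, which encodes a hormone released by the liver that acts on adipose tissue and brain. Fasting raises hepatic Fgf21 as well, through the fatty acid receptor PPARα. RNA sequencing counts the mRNAs and does not see the phosphorylation or the translation.

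Each of 6 groups held 7 male mice on the C57BL/6J background, with 1 liver library per mouse. The KO mice carried a deletion of ChemR23, the RvE1 receptor encoded by Cmklr1, made with CRISPR/Cas9, and the WT mice were their littermates. From 6 weeks of age the lean groups received a control diet with 10% of its energy from lard and the obese groups a diet with 60%, both for 15 weeks. WT obese+RvE1 and KO obese+RvE1 mice were injected with 300 ng of RvE1 on 4 days, the other 4 groups (WT lean and KO lean, WT obese and KO obese) with the ethanol-containing vehicle, and all livers were taken on day 5 after a fast.

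Between 15960120 and 43755273 reads per mouse, with a median of 24253532, fell on the listed genes. The values are normalized counts, that is the reads of a gene scaled by a size factor that was set separately in each table of 14 mice, so groups were compared only within a table. Cmklr1 had a normalized count of 40.8 to 114 in WT lean and of 9.72 to 22.6 in KO lean mice, and its log2 fold change (log2FC) between KO and WT mice was -2.23 (SE 0.24) in lean and -2.04 (SE 0.31) in obese mice. The 10 hepatocyte markers, from Alb to Cyp2e1, were listed in every table and none was called in any comparison. Markers of Kupffer cells, the resident macrophages of the liver, differed between groups and are given beside the results they accompany. Of 3 adipocyte markers tested 1 was called higher in obese mice of each genotype. Of 7 endothelial and 7 stellate markers 1 each was called lower in KO obese than in KO lean mice. Of 5 cholangiocyte markers tested 1 was called lower, and of 3 lymphocyte markers 1 higher, in KO lean than in WT lean mice. Of 13 markers of the acinar pancreas 1 or 2 passed the filter on low counts, and the erythroid list rested on Alas2 alone.

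The 10 genes were far apart in level. In WT lean mice, per kilobase of exon, Atf5 had a mean normalized count of 6622, Atf4 of 969, Fgf21 of 488 and Gdf15 of 358, against 6.56 for Asns, the lowest. Asns rested on 3 to 27 reads per WT lean mouse, which limits its precision, and Fgf21 on 185 to 1151 reads. In bulk liver, fewer cells of a type and less RNA per cell cannot be told apart, and this holds for every difference below.

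ATF4 joins with C/EBP proteins on a composite DNA element, searched here as TGATGNAA on both strands (TTNCATCA on the other strand). All 10 genes had at least 1 promoter window in the RefSeq-derived table (build GRCm38.p6), from 250 bases before to 50 bases after a transcription start, 14 windows in all. The letters occurred in windows of 4 of the 10 genes, Fgf21, Trib3, Chac1 and Asns, against 3.97% of 32851 windows of the same length and 4.51% of 27025 genes. The 4 windows are shown because 3 of their genes, Fgf21, Trib3 and Asns, were lower in obese KO mice below, and the fourth, Chac1, was not. They are printed 5′ to 3′ on the strand of the gene, with the matching letters in capitals.
Fgf21 (chr7:45615441-45615740, minus strand): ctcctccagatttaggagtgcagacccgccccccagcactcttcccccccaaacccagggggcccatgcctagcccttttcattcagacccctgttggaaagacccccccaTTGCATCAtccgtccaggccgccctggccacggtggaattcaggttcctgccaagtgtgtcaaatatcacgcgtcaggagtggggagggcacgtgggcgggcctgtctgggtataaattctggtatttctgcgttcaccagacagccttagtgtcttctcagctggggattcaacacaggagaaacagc
Trib3 (chr2:152344011-152344310, minus strand): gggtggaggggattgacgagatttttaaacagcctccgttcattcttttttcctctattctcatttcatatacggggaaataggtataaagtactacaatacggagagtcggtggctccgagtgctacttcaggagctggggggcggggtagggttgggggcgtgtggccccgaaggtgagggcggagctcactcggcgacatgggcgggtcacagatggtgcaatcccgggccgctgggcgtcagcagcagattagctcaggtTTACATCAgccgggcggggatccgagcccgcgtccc
Chac1 (chr2:119350992-119351291, plus strand): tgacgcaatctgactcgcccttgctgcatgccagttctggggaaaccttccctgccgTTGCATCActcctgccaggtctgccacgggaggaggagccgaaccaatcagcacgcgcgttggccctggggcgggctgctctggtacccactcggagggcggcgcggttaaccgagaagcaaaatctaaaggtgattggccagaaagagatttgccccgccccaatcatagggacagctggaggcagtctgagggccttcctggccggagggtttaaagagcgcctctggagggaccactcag
Asns (chr6:7693160-7693459, minus strand): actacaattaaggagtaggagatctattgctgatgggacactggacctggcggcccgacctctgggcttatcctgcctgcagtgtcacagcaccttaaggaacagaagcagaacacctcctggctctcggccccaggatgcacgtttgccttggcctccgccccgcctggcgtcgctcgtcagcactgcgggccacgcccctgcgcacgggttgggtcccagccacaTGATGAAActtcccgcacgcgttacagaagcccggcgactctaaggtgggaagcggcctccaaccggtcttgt
The match began 139 bases before the start of Fgf21, 193 before that of Chac1 and 23 before that of Asns, and in Trib3 it lay after the start. A match says only that these letters are in the window, and its absence in the windows of the other genes draws no line between them.

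Whether a high fat diet changes these genes was asked first in WT mice. Fgf21 was lower in every WT obese mouse than in any WT lean mouse, and Atf5, a transcription factor of the response that also maintains mitochondrial protein quality, was lower in 6 of 7. These 2 of the 10 genes were called, that is they passed limma at 0.1 after Benjamini-Hochberg adjustment and differed over 1.5-fold, both lower in obese mice. Of 14012 genes tested, 3.8% were called in either direction and 1.53% lower. The median log2FC of the 10 genes was -0.15, against 0.00298 over all genes tested.

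The normalized count of Fgf21 ran from 213 to 1002.5 in WT lean mice (median 338, n = 7) and from 84.0 to 197 in WT obese mice (median 111, n = 7). The groups did not overlap, as in 1.36% of all genes tested, and 2 WT lean mice, 8R with 854 and 8RL with 1002.5, stood well above the other 5. Means and SDs over 7 mice were 464 ± 324 in the lean and 126 ± 41.6 in the obese group, with a log2FC of -1.68 (SE 0.33, adjusted p = 0.0102), a level 3.19-fold lower. The selection of Fgf21, taken to rest in part on these WT obese mice, favors this direction. The gene occupies bases 45613886 to 45615490 of chromosome 7 in GRCm38, on the minus strand.

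Gdf15, the gene of a stress hormone that acts on the hindbrain to lower food intake, had normalized counts of 231 to 1894 in WT lean and of 226 to 1201 in WT obese mice. The groups overlapped almost completely, and the log2FC of -0.14 (SE 0.48) had an adjusted p of 0.913. Of the hormone genes Fgf21 was thus called and Gdf15 not, and the difference between them was not itself tested.

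Among the transcription factors, Atf5 ran from 8499 to 22161 (median 10497) in WT lean and from 4834 to 10822 (median 6545) in WT obese mice. Mouse 6L, with 10822, was the only WT obese mouse inside the lean range. The log2FC of Atf5 was -0.90 (SE 0.23, adjusted p = 0.0387), and the call was lost when each library was scaled to the same total of reads (adjusted p = 0.112). Atf4 itself had normalized counts of 1556 to 3721 in lean and of 1418 to 2223 in obese mice, with a log2FC of -0.23 (SE 0.16, adjusted p = 0.468). Ddit3, whose product CHOP drives genes of cell death under lasting stress, lay between 78.4 and 176 in lean and between 89.4 and 128 in obese mice (log2FC -0.16, SE 0.17, adjusted p = 0.670). Both of these genes lay below the lean median in all 7 obese mice, by amounts smaller than the spread between mice. Exons of Atf5 share 164 bases with genes on the opposite strand (Il4i1 and Nup62), and those of Ddit3 share 186 bases with other entries (Mars and Gm4189 on the opposite strand). The strand setting of the counting is not given in the sources used here, so reads from these stretches cannot be told apart.

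**Figure D1:**
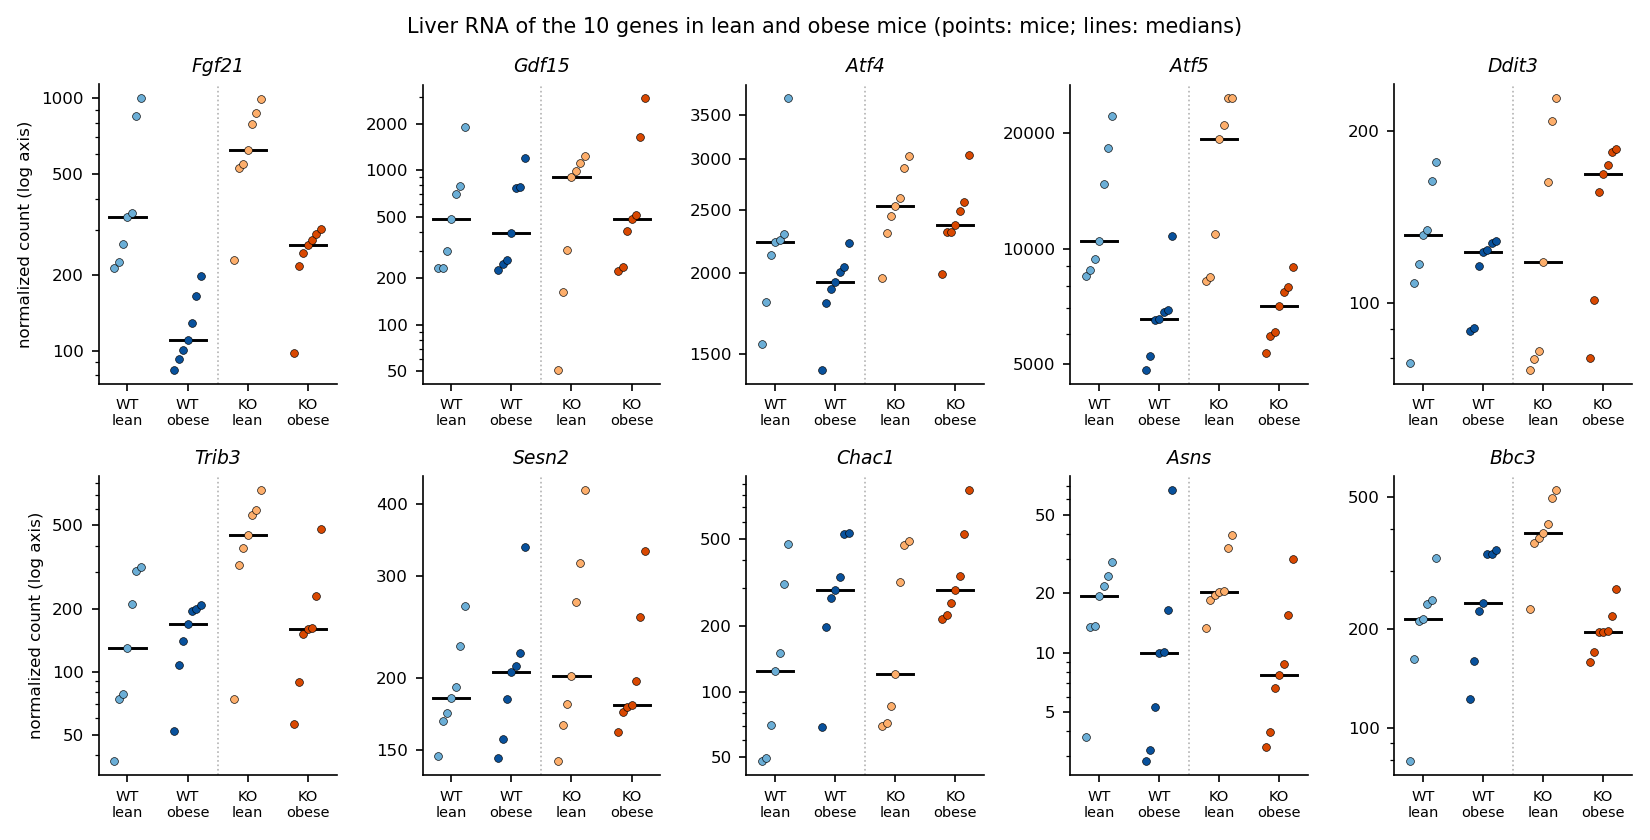
Normalized count (log axis) of the 10 genes in each of 7 mice of the 4 vehicle-treated groups, with a line at the group median; a dotted line parts the WT and KO tables, which were normalized separately. Fgf21 lay at 84.0 to 197 in WT obese mice, under every WT lean mouse, and Bbc3 at 159 to 263 in KO obese mice, overlapping KO lean mice only through 1 lean mouse at 230.

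The feedback regulators, enzymes and the apoptosis gene were not called in WT mice. Trib3, a pseudokinase that binds and restrains ATF4, had a log2FC of 0.13 (SE 0.44, adjusted p = 0.914), and Sesn2, a leucine-sensing inhibitor of mTORC1 signaling, of 0.08 (SE 0.17, adjusted p = 0.862). Chac1, which degrades glutathione, had medians of 124 in lean and 293 in obese mice, and 6 of 7 obese mice lay above the lean median. Its log2FC of 1.10 (SE 0.53, adjusted p = 0.279) did not pass the test, and lean mice ran from 47.9 to 476. Asns, the asparagine synthetase gene, had a log2FC of -0.66 (SE 0.56, adjusted p = 0.580), and Bbc3, which encodes the p53-inducible apoptosis protein PUMA, of 0.27 (SE 0.29, adjusted p = 0.671).

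In KO mice, the same diet comparison called 5 of the 10 genes, all lower in obese mice: Fgf21, Atf5, Trib3, Asns and Bbc3. Of 14213 genes tested 10.4% were called in either direction and 5.42% lower, so this table had more calls in general. The median log2FC of the 10 genes was -0.56, against -0.00206 over all genes. None of the 10 had groups that did not overlap, which held for 2.1% of all genes tested.

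Fgf21 ran from 228 to 992 in KO lean mice (median 622) and from 97.6 to 303 in KO obese mice (median 262). Every KO obese mouse lay below the KO lean median, and the ranges met only through lean mouse 20-2L, the lowest. The mean fell from 654 ± 255 (SD, n = 7) to 241 ± 69.5 (SD, n = 7), a log2FC of -1.39 (SE 0.30, adjusted p = 0.0090). Atf5 ran from 8234 to 24694 in KO lean and from 5354 to 8954 in KO obese mice, with 6 of 7 obese mice under the lowest lean mouse and a log2FC of -1.14 (SE 0.26, adjusted p = 0.0117). Among lean mice Atf5 split by the number that opens the mouse's identifier, with 8234 to 10924 in the 3 mice of number 20 and 19345 or more in the other 4.

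Bbc3 had the smallest adjusted p of the 10 genes in KO mice. Its selection, taken to rest in part on these KO obese mice, favors a lower level here, and the p-value does not allow for that. Bbc3 ran from 230 to 528 in KO lean (median 390) and from 159 to 263 in KO obese mice (median 196), and 6 of 7 obese mice lay under the lowest lean mouse. The mean fell from 400 ± 97.5 (SD, n = 7) to 200 ± 34.2 (SD, n = 7), a log2FC of -0.97 (SE 0.16, adjusted p = 0.0035). Markers of Kupffer cells moved the same way in this comparison: 6 of the 8 tested, of a list of 9 (Adgre1 had no row), were called lower, and their summed normalized count was 9658 to 21301 in KO lean and 5280 to 7266 in KO obese mice. Of 7 lymphocyte markers 4 were called lower, with sums of 71.5 to 125 against 26.5 to 68.9. Their part in the lower levels of the 5 genes was not tested.

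Trib3 and Asns were called less firmly in KO mice. Trib3 ran from 74.2 to 740 in KO lean (median 451) and from 56.7 to 479 in KO obese mice (median 161), with 6 of 7 obese mice under the lean median and a log2FC of -1.26 (SE 0.47, adjusted p = 0.0801). The call was lost with equal totals (log2FC -1.11, adjusted p = 0.160). It was kept without KO lean mouse 20R or without KO obese mouse 10-2L, 10RL or 23L, and was lost without any 1 of the other 10 mice (adjusted p up to 0.151). Asns ran from 13.3 to 39.5 in KO lean and from 3.33 to 30.0 in KO obese mice, where 5 of 7 lay under the lowest lean mouse, on 3 to 17 reads per obese mouse. Its log2FC was -1.29 (SE 0.39, adjusted p = 0.0369). With a random block for the identifier number, the adjusted p was 0.163 for Trib3 and 0.144 for Asns.

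Chac1 went the other way in both genotypes without passing the test. All 7 KO obese mice, at 216 to 845, lay above the KO lean median of 121, but 3 lean mice, all of number 20, lay among them, and the log2FC of 1.02 (SE 0.47) had an adjusted p of 0.146. It passed with library quality weights (adjusted p = 0.0113), with equal totals (0.0647), without KO lean mouse 20L (0.0783) and without KO lean mouse 20R (0.0557). Gdf15 (log2FC 0.43, SE 0.72), Atf4 (-0.06, SE 0.11), Ddit3 (0.21, SE 0.28) and Sesn2 (-0.15, SE 0.23) had adjusted p-values of 0.645 to 0.772. Scaling libraries to equal totals raised the median of all genes by 0.14 in this comparison.

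Whether the diet differences themselves depended on genotype was tested over the 28 vehicle-treated mice, and no member passed. limma found 1 gene of 13924 (0.00718%), with 2553 at an unadjusted p under 0.05, while edgeR found 1 and DESeq2 926 genes. The difference between the KO and the WT diet log2FC was largest for Trib3, at -1.39 (SE 0.69, adjusted p = 0.284), and for Bbc3, at -1.25 (SE 0.35, adjusted p = 0.141). Bbc3 passed with DESeq2 (adjusted p = 0.0266), with library quality weights (0.0165), without WT obese mouse 22L (0.0601) and without KO lean mouse 20R (0.0257), and Trib3 with library quality weights (0.0785) and without 20R (0.0747). Under these settings many genes passed, 2563 of 13924 with quality weights, 926 with DESeq2, 966 without 22L and 1847 without 20R. For Fgf21 the diet log2FCs were -1.68 in WT and -1.39 in KO mice, a difference of 0.29 (SE 0.47, adjusted p = 0.794), and for Atf5 they were -0.90 and -1.14, a difference of -0.24 (SE 0.36, adjusted p = 0.772).

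**Figure D2:**
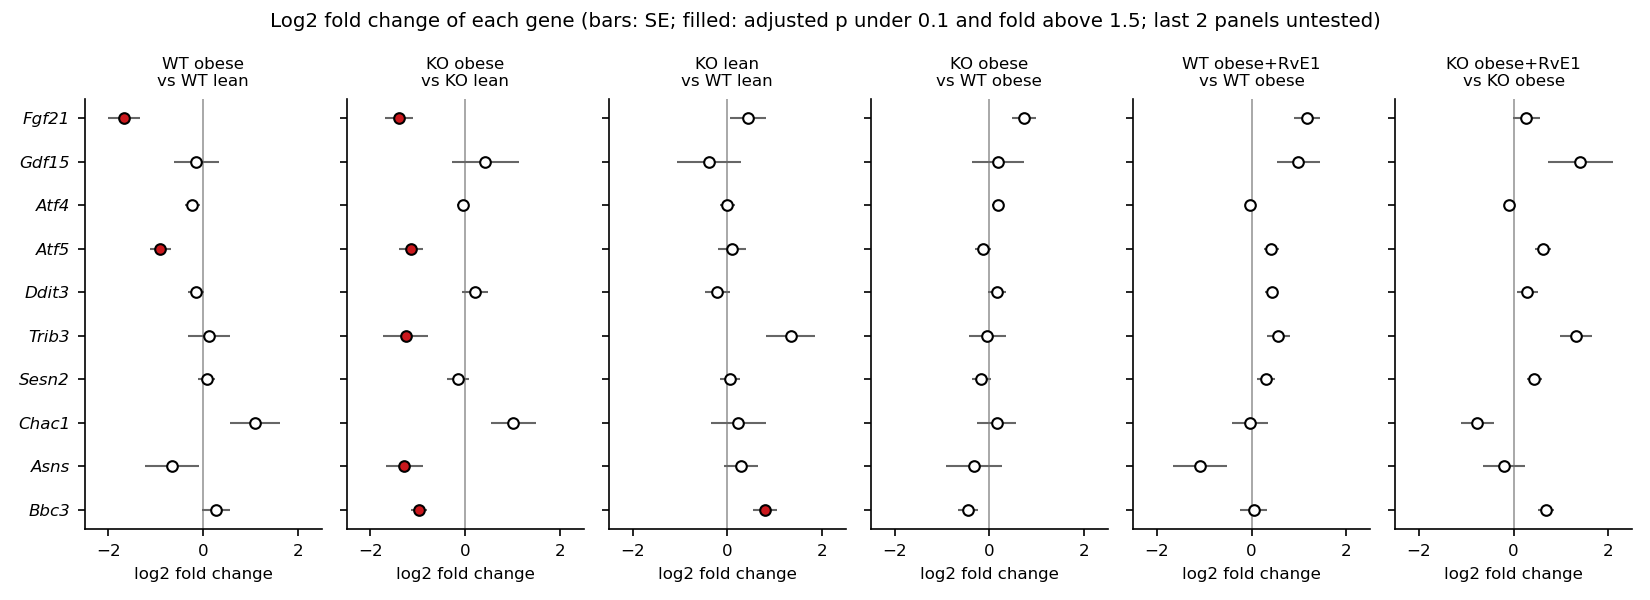
Log2 fold change of each of the 10 genes in the 6 comparisons, with bars of 1 SE from limma; filled points were called, and the 2 RvE1 panels were not tested. Fgf21 and Atf5 were called lower in both diet panels, at -1.68 and -0.90 in WT and -1.39 and -1.14 in KO mice.

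Loss of ChemR23 was examined first in lean mice, where only Bbc3 was called of the 10 genes. Of 13031 genes tested 6.65% were called in either direction and 3.94% higher in KO mice. Bbc3 ran from 82.3 to 341 in WT lean mice (median 222) and from 209 to 479 in KO lean mice (median 354), and 4 of 7 KO mice lay above every WT mouse. The log2FC was 0.79 (SE 0.25, adjusted p = 0.0654). The call was lost without WT lean mouse 19R or 21L or without KO lean mouse 14RL, 20-2L, 20L or 9L (adjusted p up to 0.131, and log2FCs down to 0.58), and also with equal totals (0.122) and with a random block for the identifier number (0.155), under which only 3 genes of the whole table were called.

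Kupffer cell markers differed in the same direction between the lean genotypes, with 7 of 8 called higher in KO mice, against 3.94% of all genes tested. With the random block only 3 genes of the whole table were called. This limits the marker calls and all other calls between the lean genotypes given below. The summed normalized count of the markers was 8763 to 19315 in KO lean and 3654 to 8017 in WT lean mice, groups that did not overlap. Their part in the Bbc3 level was not tested. In the comparison of obese genotypes, where limma called 2 of 14162 genes, none of these markers was called.

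Trib3 showed the largest difference between lean genotypes among the 10 genes without being called. It ran from 38.9 to 329 in WT lean and from 67.6 to 672 in KO lean mice, and 5 of 7 KO mice lay above every WT mouse. The log2FC of 1.34 (SE 0.52) had an adjusted p of 0.110, and it passed with edgeR (0.0970), with DESeq2 (0.0839), with library quality weights (0.0101), without WT lean mouse 8RL (0.0805) or 8R (0.0877) and without KO lean mouse 20R (0.0127). Fgf21, at 221 to 1043 in WT lean and 207 to 901 in KO lean mice, had a log2FC of 0.44 (SE 0.37, adjusted p = 0.473). The other 7 genes had log2FCs from -0.39 for Gdf15 to 0.30 for Asns and did not pass. Equal totals lowered the median of all genes by 0.12 here.

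In obese mice none of the 10 genes passed between the genotypes. limma called 2 of 14162 genes (0.0141%), with 319 at an unadjusted p under 0.05, edgeR called 2 and DESeq2 3, none of them a member. Fgf21 ran from 92.4 to 218 in WT obese and from 94.1 to 291 in KO obese mice, with 5 of 7 KO mice above every WT mouse. The log2FC of 0.73 (SE 0.25) had an adjusted p of 0.999938, and over the alternatives and the fits without 1 mouse the adjusted p stayed between 0.656 and 0.99999. Bbc3 ran from 134 to 381 in WT and from 152 to 255 in KO obese mice, all 7 KO mice lying below the WT median of 265 (log2FC -0.45, SE 0.22). The selection of Fgf21 and Bbc3, taken to rest in part on these same mice, favors both of these directions.

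RvE1 was given to obese mice of both genotypes. These comparisons chose part of the set, so the values of the 10 genes are given as a description only. Over all genes limma made no call in either comparison (0.0%). Among 13085 genes in WT mice 795 had an unadjusted p under 0.05, edgeR called 1 and DESeq2 15 (0.115%). Among 14207 genes in KO mice 1179 had an unadjusted p under 0.05, edgeR called 0 and DESeq2 14 (0.0985%). A fold change above 1.5, with no test, was reached upward by 1.12% and downward by 1.5% of genes in WT and by 2.38% and 3.1% in KO mice. Of the 10 genes 2 were past it upward and 1 downward in WT mice, and 4 upward and 1 downward in KO mice.

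Fgf21 ran from 98.5 to 233 in WT obese mice (median 130) and from 191 to 630 in WT obese+RvE1 mice (median 294). All 7 RvE1-treated WT mice lay above the median of the vehicle group and 5 above its highest mouse. The log2FC was 1.17 (SE 0.27). The 3 treated mice of identifier number 30 had 191 to 241 and the 4 of number 7 had 294 to 630, while the vehicle mice of numbers 6, 22 and 27 overlapped. Every treated WT mouse thus carried another number than the vehicle mice, and number and treatment cannot be told apart.

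In KO mice Fgf21 ran from 98.5 to 306 in the vehicle group (median 265) and from 119 to 508 in the RvE1 group (median 292). The KO groups overlapped over most of their range, with a log2FC of 0.27 (SE 0.29). Gdf15 was higher in treated mice of both genotypes, at 495 to 2883 against 267 to 1417 in WT mice (log2FC 0.99, SE 0.45) and at 434 to 9822 against 224 to 2956 in KO mice (1.41, SE 0.69). Its highest value, 9822, came from KO mouse 23-2L, and the other KO treated mice reached at most 3388.

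The apoptosis gene Bbc3 and the pseudokinase gene Trib3 had higher medians in KO mice given RvE1. Bbc3 ran from 160 to 266 in KO obese and from 223 to 451 in KO obese+RvE1 mice, 5 of 7 treated mice lying above every vehicle mouse (log2FC 0.68, SE 0.17). In WT mice the Bbc3 ranges were 144 to 407 and 164 to 628, with a log2FC of 0.04 (SE 0.28). Trib3 ran from 56.9 to 484 in KO obese and from 302 to 464 in KO obese+RvE1 mice, so that all 7 treated mice lay above the vehicle median of 162 but none above vehicle mouse 10RL (log2FC 1.32, SE 0.34). In WT mice the Trib3 log2FC was 0.57 (SE 0.25). Among KO mice only identifier number 23 occurred in both groups, with 23L given vehicle and 23-2L and 23RL given RvE1. Number and treatment thus cannot be fully told apart in KO mice, for these genes and the others.

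**Figure D3:**
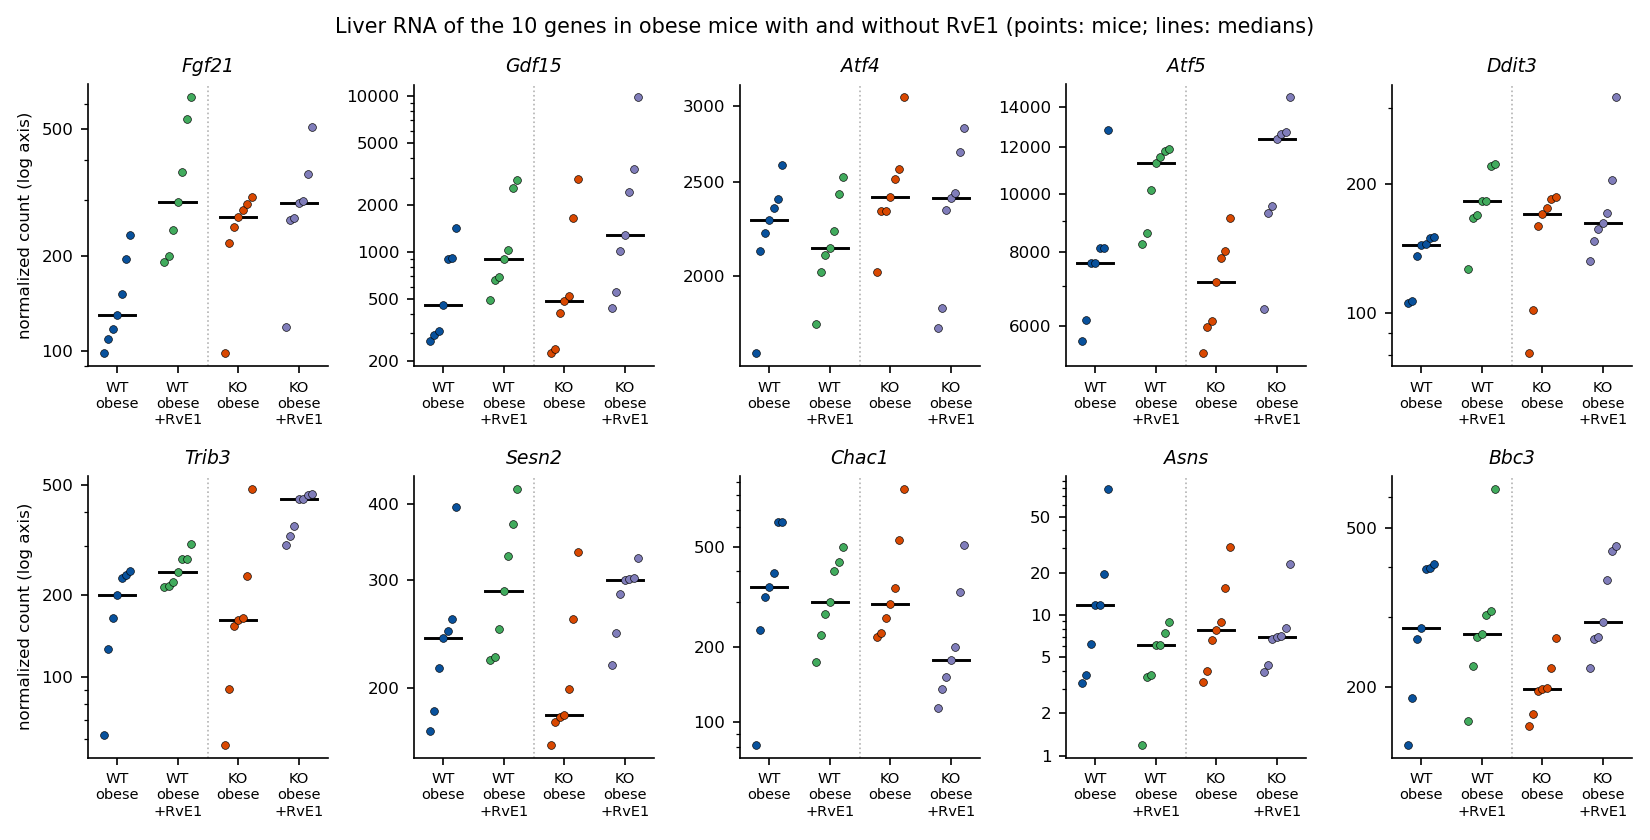
Normalized count (log axis) of the 10 genes in each of 7 mice of the 4 obese groups, with a line at the group median; the dotted line parts the separately normalized WT and KO tables. Fgf21 lay at 98.5 to 233 in WT obese and at 191 to 630 in WT obese+RvE1 mice, and Bbc3 at 160 to 266 in KO obese and at 223 to 451 in KO obese+RvE1 mice.

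Atf5 was higher by a log2FC of 0.42 (SE 0.16) in treated WT and of 0.62 (SE 0.17) in treated KO mice, where 6 of 7 lay above every vehicle mouse, while Atf4 had -0.04 (SE 0.10) and -0.09 (SE 0.12). Ddit3 had 0.43 (SE 0.14) and 0.29 (SE 0.22), and Sesn2 0.31 (SE 0.19) and 0.44 (SE 0.16). The enzymes did not share this direction: Chac1 had log2FCs of -0.03 (SE 0.38) in WT and -0.77 (SE 0.35) in KO mice, and Asns of -1.09 (SE 0.56) and -0.20 (SE 0.44). The Asns value in WT mice rested on 1 to 14 reads per treated mouse and on vehicle mouse 27RL, which had 78.8 where the other 6 reached at most 19.5. The genotypes are set side by side here, and the difference between their RvE1 responses was not tested for these genes.

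Within groups, mice were separated by the number with which their identifier opens. There were 17 such numbers with 1 to 4 mice each in a group, each number occurring in 1 group only except 23, found in KO obese and KO obese+RvE1 mice. No number had mice of both diets or both genotypes, so number cannot be fully told apart from diet or genotype. Within groups, 8 of the 10 genes, all but Gdf15 and Atf4, differed between numbers at an adjusted p under 0.1, as did 36.6% of 12748 genes. The share of the within-group variance of log2 values that lay between numbers was 83.9% for Atf5, 77.4% for Chac1 and 60.6% for Fgf21, with 12 and 24 degrees of freedom, against a median of 47.6% over all genes.

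In lean mice the sets of mice were plain to see. The WT mice of number 8 had Fgf21 counts of 883 and 1043, and those of numbers 19, 21 and 26 had 221 to 365. The same number 8 mice had 49.8 and 72.6 for Chac1, where the mice of number 26 had 325 and 496. In KO lean mice Chac1 was 288 to 444 in the 3 mice of number 20 and 63.0 to 110 in the 4 of numbers 9 and 14, groups of mice that did not overlap, and Atf5 was the reverse, at 7477 to 9906 and 17564 to 22412. What the numbers stand for is not given in the labels.

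**Figure D4:**
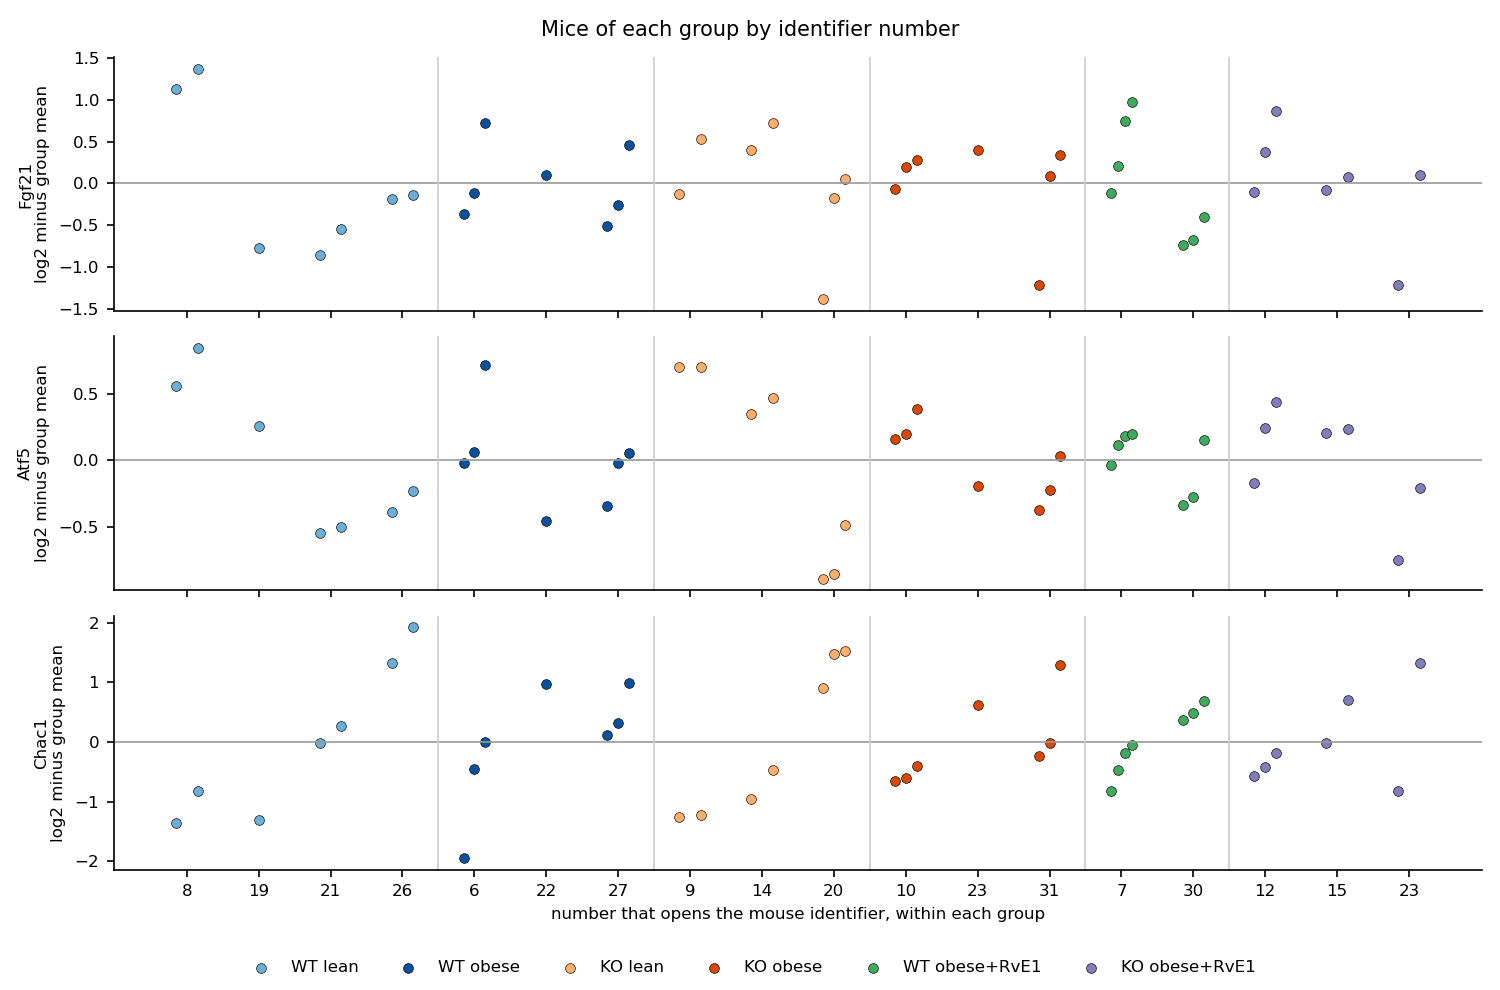
Log2 normalized count of Fgf21, Atf5 and Chac1 in each of 42 mice as the difference from its group mean, by the number that opens the mouse's identifier, with vertical lines between groups. In KO lean mice the 3 mice of number 20 lay lower for Atf5 and higher for Chac1 than the 4 mice of numbers 9 and 14.

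How the other 9 genes varied with Fgf21 from mouse to mouse was examined on log2 values after removal of the group means, over 42 mice. Atf5 rose with Fgf21, and Ddit3 and Chac1 fell, in the limma test of a slope adjusted over 12747 genes, of which 26.9% passed, 13.8% rising and 13.0% falling. For Atf5 Pearson's r was 0.68 (permutation p = 2.00e-05) and Spearman's rho 0.64 (permutation p = 4.00e-05), with an adjusted p of 0.000444. It ranked 41 of 12747 genes by r. The slope test and the permutations took the mice of a group as independent. Of the within-group variance, 60.6% for Fgf21 and 83.9% for Atf5 lay between identifier numbers. These p-values, and those of Ddit3 and Chac1 below, do not allow for that and may be too small.

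Ddit3 had an r of -0.46 (permutation p = 0.00438) and a rho of -0.48 (permutation p = 0.00216), adjusted p = 0.0249. Chac1 had an r of -0.40 (permutation p = 0.0191) and a rho of -0.44 (permutation p = 0.00839), adjusted p = 0.0494. The CHOP gene and the glutathione-degrading enzyme were therefore lower in mice with more Fgf21 RNA, in the pooled mice. For Trib3 (r = 0.33), Sesn2 (-0.31), Atf4 (-0.27), Gdf15 (0.18), Bbc3 (0.12) and Asns (0.04) the slope did not pass, with adjusted p-values of 0.121 to 0.872.

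With equal totals of reads Ddit3 no longer passed (r = -0.30, adjusted p = 0.124) and Trib3 did (r = 0.45, adjusted p = 0.0101). Without the 2 mice farthest from the median of Fgf21, WT lean mouse 8RL and KO lean mouse 20-2L, r was 0.59 for Atf5, -0.38 for Ddit3 and -0.32 for Chac1. For Atf5 it was 0.73 among lean, 0.49 among obese WT and 0.76 among obese KO mice, and for Ddit3 -0.53, -0.85 and -0.17. Within identifier numbers, over the 39 mice that shared a number with another mouse of their group, r was 0.62 for Atf5 (adjusted p = 0.413), -0.27 for Ddit3 and -0.11 for Chac1. No gene of 12747 (0.0%) passed there in the limma test, with 1127 at an unadjusted p under 0.05.

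**Figure D5:**
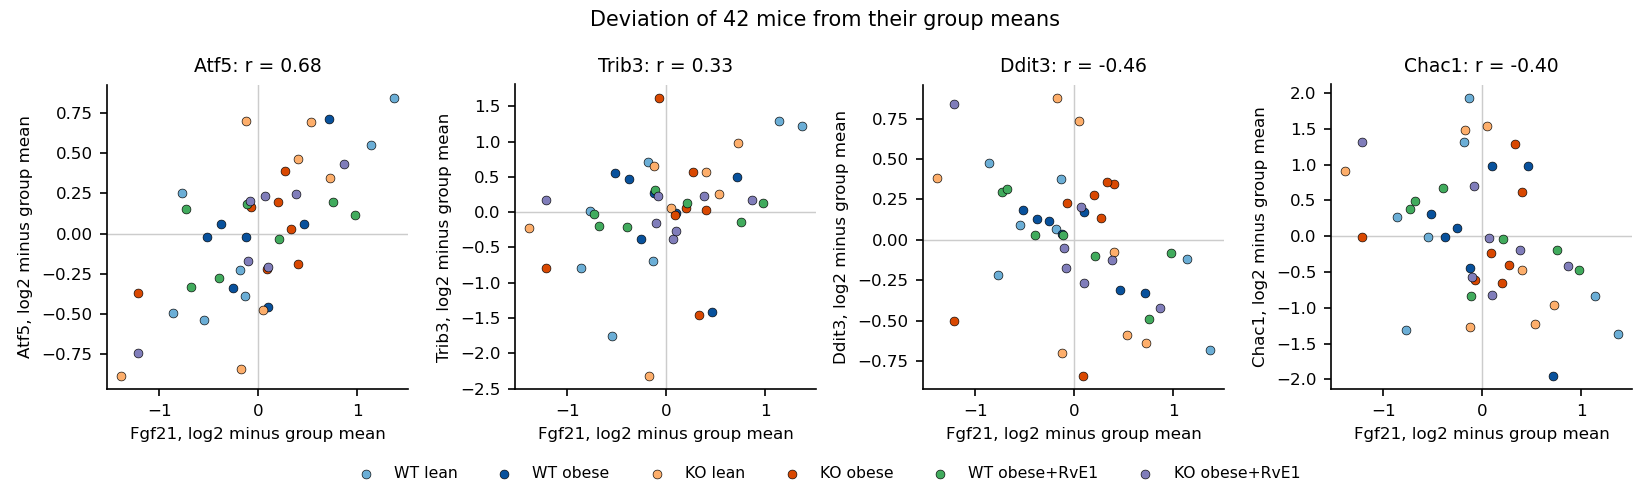
Log2 normalized count of Atf5, Trib3, Ddit3 and Chac1 against that of Fgf21 in 42 mice, each as the difference from its group mean, with Pearson's r above each panel. Atf5 rose with Fgf21 (r = 0.68), and Ddit3 (r = -0.46) and Chac1 (r = -0.40) fell.

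The genes whose level was most like that of Fgf21 over the 42 mice were Fam63a (r = 0.80), Rab12 (r = 0.77), Zfp746 (r = 0.75), Pqlc2 (r = 0.75) and Fignl2 (r = 0.75). Within identifier numbers r was 0.69 for Fam63a, 0.62 for Rab12, 0.61 for Zfp746, 0.65 for Pqlc2 and 0.68 for Fignl2. The limma slope test there gave adjusted p-values of 0.315 to 0.413 for these 5 genes. No gene passed within identifier numbers, which also limits the list counts that follow, taken over all 42 mice. Among 20 target genes of PPARα, the receptor that drives fatty acid oxidation in the fasted liver, 11 rose with Fgf21 and 1, Angptl4, fell, with a median r of 0.40 against -0.00224 over all genes. Plin2, a lipid droplet coat protein, had an r of 0.65 and the omega-hydroxylase gene Cyp4a14 of 0.60. Of 20 aminoacyl-tRNA synthetase genes, which ATF4 also controls in part, 7 rose and none fell, with Yars at an r of 0.70. Over all genes 13.8% rose and 13.0% fell. The other ATF4 lists did not share this direction. Of 13 other ATF4 and CHOP targets 0 rose and 2 fell, and of 10 genes of amino acid and one-carbon synthesis 0 and 2. Of 10 bZIP partners 0 rose and 3 fell, of 14 eIF2 kinase and control genes 1 and 3, and of 10 amino acid transporters 2 and 1.

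The wider pathway was read from lists of genes in the same way. Of 14 genes for the eIF2 kinases and their control none was called in any of the 6 comparisons, with list medians of the log2FC between -0.17 and 0.13. Of 20 aminoacyl-tRNA synthetases, 1 was called in all: Eprs, lower in KO lean than in WT lean mice (log2FC -0.66, SE 0.20, adjusted p = 0.0578). Of all genes tested 2.7% were called lower there. In the comparison of obese genotypes, where limma called 2 of 14162 genes, no gene of any pathway list was called. In the RvE1 comparisons limma called 0 of 13085 genes in WT and 0 of 14207 in KO mice, so no list could hold a call.

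Among 14 genes of amino acid and one-carbon synthesis, 1 was called lower in WT obese and 3 in KO obese mice. Over all genes tested these shares were 1.53% and 5.42%. The mitochondrial folate enzyme gene Aldh1l2 was lower in both, by a log2FC of -1.06 (SE 0.27, adjusted p = 0.0392) in WT and of -1.02 (SE 0.27, adjusted p = 0.0237) in KO mice, and Cth and Cbs of the transsulfuration pathway were the others in KO mice. Of 11 amino acid transporters tested, KO obese mice had 2 called higher and 1 lower, against 4.97% and 5.42% of all genes tested. Slc7a11, the cystine importer, was higher by 1.17 (SE 0.46, adjusted p = 0.0906), and Slc1a5, a glutamine carrier, had a log2FC of -0.83 (SE 0.21, adjusted p = 0.0177).

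Among the bZIP partners of ATF4, a list of 11, Atf3, an immediate stress factor, was lower in WT obese than in WT lean mice (log2FC -1.67, SE 0.47, adjusted p = 0.0615) and lower in KO lean than in WT lean mice (-1.37, SE 0.51, adjusted p = 0.0953). Cebpa, a C/EBP factor of the mature hepatocyte, was lower in KO obese mice (-0.81, SE 0.16, adjusted p = 0.0064) and higher in KO lean than in WT lean mice (0.69, SE 0.18, adjusted p = 0.0417). Of 14 other ATF4 and CHOP targets tested 2 were called higher in obese mice of each genotype, against 2.26% of all genes in WT and 4.97% in KO mice. Among them was Vldlr, a lipoprotein receptor, higher by 1.19 (SE 0.30, adjusted p = 0.0419) in WT and 1.33 (SE 0.47, adjusted p = 0.0681) in KO mice. In lean mice 3 of 13 were called lower in KO, against 2.7% of all genes tested, with Dusp1, a phosphatase of MAP kinases, at -1.09 (SE 0.39, adjusted p = 0.0889).

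Of 15 receptors and regulators of FGF21 tested, only Klb was called, and only in the diet comparisons. Klb encodes β-klotho, the coreceptor that FGF21 needs to signal. Its mean normalized count over 7 mice per group was 1386 ± 357 (SD) for the WT lean and 763 ± 282 for the WT obese group, a log2FC of -0.90 (SE 0.22, adjusted p = 0.0319), and for KO mice it was 1387 ± 276 when lean and 878 ± 129 when obese, a log2FC of -0.65 (SE 0.13, adjusted p = 0.0069). Hormone and coreceptor genes were both lower in obese livers of either genotype.

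In the diet comparisons PPARα target genes had more calls than the other pathway lists. Of all genes tested 1.53% were called lower in WT obese and 5.42% in KO obese mice. In WT obese mice 6 of 20 were called lower and none higher, with a list median of -0.31, and in KO obese mice 9 of 20 were called lower, with a median of -0.57. Cyp4a31 had the largest difference, -2.76 (SE 0.43, adjusted p = 0.0025) in WT and -2.40 (SE 0.53, adjusted p = 0.0109) in KO mice. In lean mice 1 of 20, Fabp1, the liver fatty acid binding protein gene, was higher in KO than in WT (log2FC 0.81, SE 0.26, adjusted p = 0.0661). In WT mice given RvE1 the list had a median of 0.26, with all 20 above 0, and in KO mice a median of 0.11, with 14 above 0. Of all genes tested none was called in either RvE1 comparison.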

How the data were processed

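Total RNA from mouse liver was sequenced from 42 mice, 1 library each. Following the study's methods and the submitters' processing notes, the authors made stranded TruSeq libraries, checked reads with FastQC, aligned pairs to mm10 with Bowtie2 and counted them per gene with featureCounts (Subread). The sources used here give no tool versions, no annotation and no strand setting. The authors ran DESeq2 once per comparison and deposited signal values, the counts divided by size factors of 14 libraries, in 6 tables. The deposited columns of the authors' own fold changes and p-values were not used.

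Whole reads were recovered from the deposited signal values: 100% of 1268806 values were whole within 0.1 reads. A gene entered the test when its mean over the table was 5 or more, and the test was limma 3.58.1 (lmFit, eBayes with trend, two-sided, R 4.3.3) on log2(normalized count + 1), a scale that understates changes of low genes, with Benjamini-Hochberg adjustment over each table. To be called, a gene needed a 1.5-fold difference and an adjusted p under 0.1, and diet by genotype differences and slopes an adjusted p under 0.1. The members, the gene lists and the tests were chosen with earlier results of these data known. Named genes are all members, from each pathway list the called gene with the largest change in each direction in each comparison, and the 5 genes most correlated with Fgf21. Cth, Cbs, Plin2, Cyp4a14, Yars and Angptl4 were named after their values were seen. Permutation p-values used 100000 draws within groups, which did not keep the mice of an identifier number together.

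As alternatives served a pseudocount of 0.5 or of 4, testing without the filter, TMM scaling, equal totals, library quality weights, a random block for the identifier number, a limit of 0.05, calls at any fold, edgeR 4.0.16 and DESeq2 1.42.0 on the recovered reads, and leaving out each mouse. The test by identifier number and the slopes within numbers were added after seeing the data. On simulated data with 200 genes changed 2-fold, limma recovered 98 to 99.5% in the 6 comparisons and 67% for the diet by genotype difference. The simulated mice were independent, all genes had the same dispersion, and only genes above a set mean level were changed. In the real data the SD was 69.9% of the mean for Fgf21 in WT lean mice and 139% for Asns in WT obese mice. The recovered shares therefore do not give the power for the 10 genes. Gene positions came from GENCODE M21 (GRCm38, the build of mm10) and promoter windows from RefSeq.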

Additional observations from a re-analysis of the deposited data

Results flagged for a closer look

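Of 60 sets of 7 mice (10 genes in 6 groups), 11 held a mouse whose gap to its nearest neighbor, divided by the range of the set, was above the critical value of 0.568. Chance gives about 1 set in 20 if the values of a set are normally distributed. Normalized counts on the linear scale can lean to high values, so no excess over chance is read from the 11 sets. KO obese+RvE1 mouse 23-2L stood apart in 3 genes, Gdf15 (ratio 0.685, normalized count 9822 against at most 3388 in the others), Ddit3 (0.611, 318 against at most 204) and Asns (0.782, 23.2 against at most 8.11). It also had the lowest Fgf21 count of its group, 119. In KO obese mice Fgf21 was low in 31N (0.583, 98.5 against at least 219) and Trib3 high in 10RL (0.586, 484 against at most 234). In WT obese mice Atf5 was high in 6L (0.655, 12774 against at most 8121), Sesn2 in 27-2L (0.606, 395 against at most 259) and Asns in 27RL (0.785, 78.8 against at most 19.5). In WT lean mice Gdf15 was high in 8RL (0.660, 1970 against a median of 501) and Atf4 in 19R (0.659, 3871 against at most 2385). In WT obese+RvE1 mice Bbc3 was high in 30RL (0.684, 628 against at most 311). All 11 ratios are of normalized counts on the linear scale.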

How the results depend on the processing

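Fgf21 was called lower in obese mice of both genotypes, and Atf5 and Bbc3 lower in KO obese mice, under every alternative and every fit without 1 mouse. The selection of Fgf21 and Bbc3 stays in all of these fits. The random block applied 1 correlation to all genes of a table, while 83.9% of the within-group variance of Atf5 lay between identifier numbers. No number had mice of both diets, so number and diet cannot be fully told apart. Of the 10 genes, the number called in WT obese vs WT lean was 1 instead of 2 with equal totals. In KO obese vs KO lean it was 3 instead of 5 with identifier number as block, and 4 to 6 with 1 mouse left out. In KO lean vs WT lean it was 0 instead of 1 with an adjusted p under 0.05, with equal totals and with identifier number as block, and 2 with library quality weights, with edgeR and with DESeq2, and 0 to 2 with 1 mouse left out. For the diet by genotype difference it was 3 with library quality weights, 1 with DESeq2 and 0 to 2 with 1 mouse left out, instead of 0, while 2563, 926 and 0 to 1847 of all genes passed, instead of 1. Within identifier numbers 0 instead of 3 slopes on Fgf21 passed. The cause of these changes was not tested. The random block left 242, 750, 3 and 0 genes called in the WT diet, KO diet, lean and obese genotype comparisons. No paired analysis was possible because the groups share no mice and the replicate numbers are only names.

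The log2FC values that changed sign were all of genes not called. In WT obese vs WT lean Trib3 was -0.10 with edgeR and -0.10 with DESeq2. In KO obese vs KO lean Atf4 was 0.091 with equal totals and Sesn2 0.14 with quality weights. In KO lean vs WT lean Atf4 was 0.0056, Sesn2 -0.24 and Chac1 -0.63 with quality weights, and Atf5 -0.013 and Sesn2 -0.062 with equal totals. In KO obese vs WT obese Trib3 was 0.17 with quality weights, 0.11 with edgeR and 0.12 with DESeq2. For diet by genotype Fgf21 was -0.14, Sesn2 0.073 and Chac1 0.76 with quality weights, and Chac1 0.0030 with equal totals. Of r with Fgf21, that of Atf4 was 0.042 with equal totals, those of Gdf15 and Asns -0.17 and -0.28 within the obese KO mice, those of Trib3 and Bbc3 -0.12 and -0.20 within the obese WT mice, and those of Trib3, Sesn2, Asns and Bbc3 -0.32, 0.061, -0.19 and -0.11 within identifier numbers.

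With 1 mouse left out, values spanned 0 for Gdf15 (-0.37 to 0.18), Trib3 (-0.16 to 0.37) and Sesn2 (-0.048 to 0.16) in WT obese vs WT lean, Gdf15 (-0.087 to 0.68) in KO obese vs KO lean, Gdf15 (-0.64 to 0.12), Atf4 (-0.089 to 0.12), Atf5 (-0.013 to 0.25), Sesn2 (-0.094 to 0.16), Chac1 (-0.020 to 0.56) and Asns (-0.0064 to 0.44) in KO lean vs WT lean, Gdf15 (-0.20 to 0.42), Trib3 (-0.31 to 0.20), Chac1 (-0.17 to 0.31) and Asns (-0.60 to 0.13) in KO obese vs WT obese, and Chac1 (-0.41 to 0.17) for diet by genotype. In the untested RvE1 comparisons they did so for Atf4 (-0.10 to 0.01), Chac1 (-0.36 to 0.13) and Bbc3 (-0.14 to 0.18) in WT and for Asns (-0.45 to 0.09) in KO mice, and 3 to 4 genes in WT and 4 to 5 in KO mice were past 1.5-fold.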

Other observations

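Immediate early genes, which respond within minutes to handling, feeding and stress, had negative log2FCs in lean mice without ChemR23. Of 13 tested 3 were called lower in KO lean than in WT lean mice, against 2.7% of all genes tested. All 13 had a log2FC under 0, with a median of -1.20. With the random block for the identifier number only 3 genes of the whole table were called in this comparison. Nr4a1, a nuclear receptor of this class, averaged 1566 ± 2103 normalized counts (SD over 7 mice) for WT lean and 171 ± 146 for KO lean mice (log2FC -2.76, SE 0.72, adjusted p = 0.0430), so that the spread among WT mice exceeded their mean. In WT obese against WT lean mice 2 of 14 were called lower, against 1.53% of all genes tested, with Nr4a3 at -2.86 (SE 0.88, adjusted p = 0.0877). In KO mice Egr2 was called higher in obese mice (1.66, SE 0.60, adjusted p = 0.0701), as were 4.97% of all genes tested.

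Of the other BCL2 family genes 2 had calls in the same direction as Bbc3, and the list as a whole had a median log2FC of -0.0088 in KO obese against KO lean mice. Bad and Bik, both promoters of apoptosis, were called lower in KO obese than in KO lean mice, Bad at -0.73 (SE 0.16, adjusted p = 0.0096), and higher in KO lean than in WT lean mice, Bik at 0.88 (SE 0.27, adjusted p = 0.0604), the other 10 and 9 genes tested not being called. The KO lean mice are shared by both comparisons. Of all genes tested 5.42% were called lower in KO obese than in KO lean mice and 3.94% higher in KO lean than in WT lean mice. Of 16 other p53 pathway genes, Btg2 was lower in WT obese than in WT lean mice (-1.09, SE 0.31, adjusted p = 0.0646), as were 1.53% of all genes. In KO obese against KO lean mice 2 were called higher, against 4.97% of all genes, with Eda2r ahead (1.32, SE 0.30, adjusted p = 0.0125). Bbc3 and Eda2r thus had opposite directions there.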
